A study of Mus musculus with 2 samples.

Results

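Transcripts of 50 genes that build the lysosome and carry out autophagy were followed in the jejunum of mice, the stretch of small intestine between duodenum and ileum, in a pool labelled wild-type and a pool labelled as knocked out for the transcription factor XBP1. The genes were taken as a list of symbols. Every probe set whose only gene symbol in the platform annotation was 1 of these symbols was used. Of the 50 genes, 49 had such a probe set, among 18193 genes on the array that could be read in this way, and Cd63 was not analysed here. The 49 genes were read by 119 probe sets, from 1 to 6 per gene. The list holds 5 measured proteins of the lysosomal membrane, 2 transcription factors of lysosomal genes, 11 proteases, 11 hydrolases of glycans, lipids and sulfates, 3 luminal cofactors and 17 autophagy factors.

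The study has 2 samples, 1 from wild-type mice and 1 from mice labelled XBP1 knock-out, and each is RNA pooled from 3 animals. The RNA came from scrapings of the intestine, so epithelium, immune cells and other cells of the mucosa are read together, and less RNA per cell cannot be told apart from fewer cells of a type. Age, sex, strain, the deleted allele and any driver of the deletion are not stated by the labels. Xbp1 itself stood at 8143 in wild-type and at 6782 in knock-out-labelled tissue, a log2 ratio of -0.26. Where its probe set lies relative to a deletion is not known here, so this value does not check the label. Every direction below therefore rests on the labels.

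Lysosomes are acidic organelles in which hydrolases degrade proteins, glycans and lipids delivered by endocytosis and by autophagy. In autophagy a membrane forms around cytoplasm or bacteria, is coated with lipid-linked ATG8 proteins, and fuses with the lysosome. TFEB and TFE3 are transcription factors that switch on many genes of both systems through an element with the core CACGTG. In the small intestine autophagy genes such as Atg16l1 and Atg5 are known for their part in the secretory granules of Paneth cells, and lysosomes are abundant in macrophages.

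Values are MAS5 signals, the summary brightness of 1 probe set, scaled so that the 75th percentile is equal on both arrays. Ratios are log2 of knock-out-labelled over wild-type. Signals at or below a floor of 68.1 units, the 50th percentile over both arrays, were set to the floor, and a ratio with 1 pool at the floor is given as "at least" or "at most". With 1 array per pool there is no replicate, no test and no p-value, and precision is limited by how few arrays there are. As a technical measure, the ratios of different probe sets of 1 gene had an SD of 0.37 over 4350 genes and of 0.36 over the 26 lysosome and autophagy genes with at least 2 probe sets above the floor in both pools. This SD holds no variation between mice. Median deposited signals over all probe sets were 72.5 and 62.2, and the spikes added as controls had a median log2 ratio of -0.69 (hybridisation, 18 probe sets) and -0.23 (labelling, 27 probe sets).

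Most lysosome and autophagy genes were somewhat lower in the knock-out-labelled pool, and 4 lysosomal genes were at least 2-fold lower. Lamp1, a main glycoprotein of the lysosomal membrane, was 5.27-fold lower. Tpp1, a tripeptidyl peptidase, was 3.04-fold lower, Smpd1, the acid sphingomyelinase, 2.50-fold lower, and Naglu, an enzyme of heparan sulfate degradation, 2.25-fold lower. These are 8.16% of the 49 genes, beside 5.08% of all 12826 measured genes that were at least 2-fold lower. None of the 49 was at least 2-fold higher, beside 2.25% of all measured genes. At a threshold of 1.5-fold, 15 of the 49 were lower (30.6%) and 2 higher (4.08%), beside 16.3% and 7.84% of all measured genes. The median log2 ratio was -0.28 over the 49 genes and -0.11 over all measured genes. Ratios lay below 0 for 38 of the 49 (77.6%), and for 60.2% of all measured genes. Among 4151 other genes whose mean signal lay between the quartiles of the 49, the median was -0.03, 53.9% lay below 0, 9.64% passed 1.5-fold downward and 3.23% passed 2-fold downward. No test compares these shares.

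**Figure D1:**
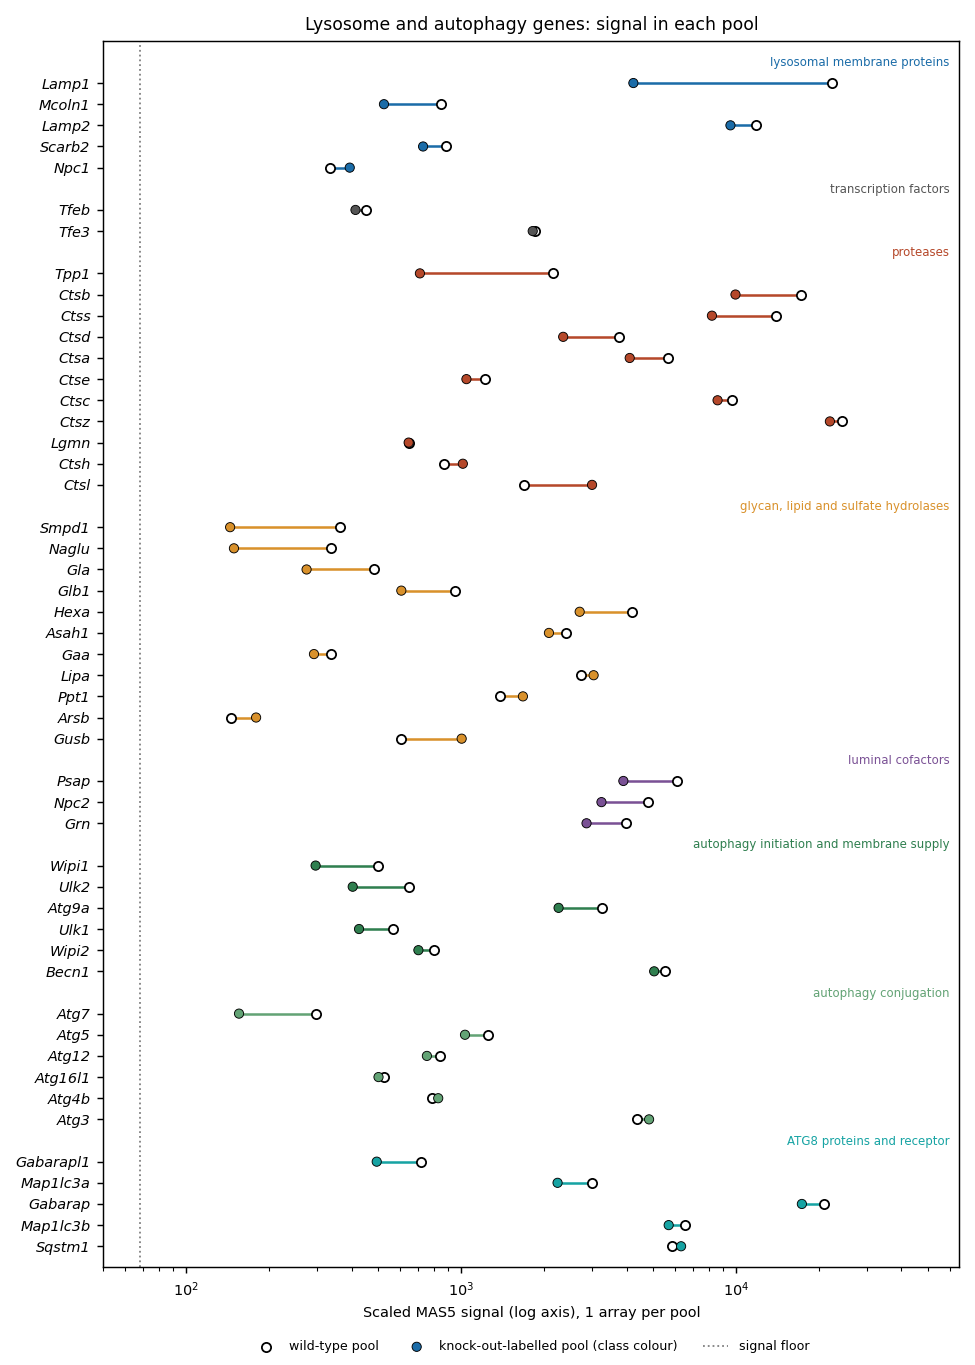
Scaled MAS5 signal on a log axis of the probe set used for each of the 49 genes, grouped by class, with open circles for the wild-type pool, filled circles for the knock-out-labelled pool and a dotted line at the floor of 68.1. Lamp1 runs from 22306 down to 4236, Ctsl runs the other way from 1699 to 2997, and signals of different genes are not comparable with each other.

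The sign of these medians depended on how the arrays were made equal, while the distance between them moved less. Over all settings tried, the median of the lysosome and autophagy genes lay below that of all measured genes, by between 0.12 and 0.21. With the labelling spikes made equal, a setting added after seeing the data, the median was 0.05 for these genes and 0.20 for all measured genes. With the hybridisation spikes made equal it was 0.50 beside 0.62. In that setting 7 of 49 ratios lay below 0, and Lamp1 alone was still at least 2-fold lower, at -1.61. Higher and lower below refer to the common 75th percentile. The split of all measured genes past 2-fold, 288 higher and 652 lower, was 377 and 480 after loess, 711 and 321 with labelling spikes equal, and 2641 and 126 with hybridisation spikes equal.

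**Figure D2:**
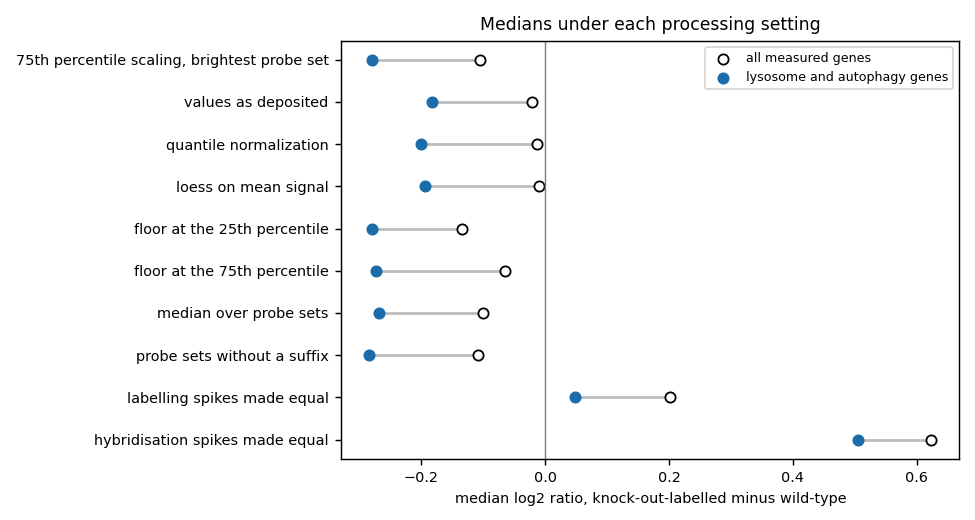
Median log2 ratio (horizontal axis) of the lysosome and autophagy genes (filled circles) and of all measured genes (open circles) under each processing setting. The filled circle lies to the left of the open one in every setting shown, while both lie above 0 once either kind of spike is made equal.

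Lamp1 carried the lowest ratio of the list. LAMP1 lines the inner face of the lysosomal membrane with its heavily glycosylated domain. Its signal dropped from 22306 (wild-type) to 4236 (knock-out-labelled), a log2 ratio of -2.40. The value rests on a single probe set, whose suffix marks it as able to read several transcripts of the gene, and no second probe set checks it. Across the settings that kept this probe set and did not use the spikes, the ratio ran from -2.40 to -2.21. Lamp2, which encodes the sister glycoprotein, had 4 probe sets, all above the floor in both pools. They went from 11804 to 9552, from 4902 to 4452, from 4762 to 4444 and from 2890 to 3466, with log2 ratios of -0.31, -0.14, -0.10 and 0.26. The closest relative of Lamp1 thus stayed within the SD between probe sets on each of its 4 readings.

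Tpp1, a serine protease that removes tripeptides from the ends of proteins in the lysosome, was lower on both of its probe sets. Its signal went from 2158 to 709 (log2 ratio -1.61), and on the second probe set from 671 to 274, a log2 ratio of -1.29. Smpd1, which cleaves sphingomyelin to ceramide, went from 362 to 145, a log2 ratio of -1.32. Its dimmer probe set went from 115 to a signal below the floor, a log2 ratio of at most -0.76. Naglu, which trims N-acetylglucosamine from heparan sulfate, went from 336 to 149, a log2 ratio of -1.17, on its only probe set. Smpd1 and Tpp1 lie close together on chromosome 7. Of 9 protein-coding genes between them in the RefSeq order, 7 were measured, with a median log2 ratio of -0.20. Their ratios ran from -0.51 for Arfip2 to 0.74 for Rrp8. At least 2-fold lower were 0 of the 7, beside 5.08% of all measured genes, and 7 genes are too few to compare these shares. An effect of the region on both genes was not tested.

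The promoters of these 4 genes are shown because they differ in the CACGTG core through which TFEB and TFE3 act. Each stretch is the 250 bases before the RefSeq start of the gene, on the strand of the gene, in build GRCm38.p6. Capitals mark CACGTG or, in Smpd1, a match to TGATGNAA on the opposite strand, the core of the element bound by ATF4. Lamp1 lies at chr8:13158911-13159160 (plus strand), Naglu at chr11:101069844-101070093 (plus strand), Smpd1 at chr7:105554110-105554359 (plus strand) and Tpp1 at chr7:105752236-105752485 (minus strand).
Lamp1: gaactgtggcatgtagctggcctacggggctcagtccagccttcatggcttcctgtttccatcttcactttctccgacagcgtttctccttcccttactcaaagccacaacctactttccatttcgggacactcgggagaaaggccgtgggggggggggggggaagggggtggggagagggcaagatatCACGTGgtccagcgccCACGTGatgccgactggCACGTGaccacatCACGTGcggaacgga
Naglu: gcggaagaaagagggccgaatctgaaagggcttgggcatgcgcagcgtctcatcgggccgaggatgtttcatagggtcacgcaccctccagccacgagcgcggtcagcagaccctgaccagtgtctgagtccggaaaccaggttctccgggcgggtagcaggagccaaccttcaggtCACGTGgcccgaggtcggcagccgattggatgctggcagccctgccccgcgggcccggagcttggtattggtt
Smpd1: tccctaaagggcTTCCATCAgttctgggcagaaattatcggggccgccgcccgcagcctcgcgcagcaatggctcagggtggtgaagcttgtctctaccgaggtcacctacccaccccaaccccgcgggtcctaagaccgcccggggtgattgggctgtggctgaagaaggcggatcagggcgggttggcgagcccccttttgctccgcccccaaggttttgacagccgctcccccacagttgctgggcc
Tpp1: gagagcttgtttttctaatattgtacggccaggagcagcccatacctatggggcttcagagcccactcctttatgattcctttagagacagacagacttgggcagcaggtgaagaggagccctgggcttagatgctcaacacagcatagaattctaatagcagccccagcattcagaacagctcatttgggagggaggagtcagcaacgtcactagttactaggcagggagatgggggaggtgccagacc

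Lamp1 has 4 copies of CACGTG, which begin 61, 45, 28 and 15 bases before the start, and Naglu has 1 copy, 73 bases before it. Neither Tpp1 nor Smpd1 has these letters in the window. The RefSeq table held a promoter window of 300 bases, 250 before and 50 after the start, for 41 of the 50 genes. CACGTG, which reads the same on both strands, occurred in the windows of 13 of these 41 genes (31.7%) and of 8.09% of all 27025 genes in the table. The longer TCACGTGA, which contains CACGTG, occurred in 5 of the 41 (12.2%) and in 1.12% of all genes. TGACGTGG, a sequence bound by XBP1 and ATF6, occurred in 0 of the 41 and 0.714% of all genes, and TGATGNAA in 2 of the 41, Ctsl and Smpd1, and 4.51% of all genes. All were searched on both strands. The 27025 genes are not limited to those measured on the array. As TFEB and TFE3 act through CACGTG on many genes of both systems, the list is not independent of this element. No test compares these shares.

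The TCACGTGA matches are shown with the flanking bases, motif in capitals, on the strand of the gene. TCACGTGA is the longest form of the element that was searched for. They come from RefSeq windows of build GRCm38.p6 at chr2:164833751-164833776 and chr2:164833768-164833793 (Ctsa, plus strand), chr7:142387910-142387935 (Ctsd, minus), chrX:134601217-134601242 and chrX:134601184-134601209 (Gla, minus), chr8:3500464-3500489 (Mcoln1, plus) and chr16:45158748-45158773 (Atg3, plus).
Ctsa, first copy: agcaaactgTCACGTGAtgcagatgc
Ctsa, second copy: tgcagatgcTCACGTGAccagagcta
Ctsd: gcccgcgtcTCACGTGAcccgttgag
Gla, first copy: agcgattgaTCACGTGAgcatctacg
Gla, second copy: agatctcggTCACGTGAgcaactctc
Mcoln1: gcgccccgcTCACGTGAccgcggcgc
Atg3: agagtcgagTCACGTGAggccttagg

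The 5 genes with TCACGTGA had log2 ratios of -0.47 (Ctsa), -0.67 (Ctsd), -0.82 (Gla), -0.68 (Mcoln1) and 0.14 (Atg3). Over the 13 genes with CACGTG, which were Atg3, Atg5, Atg7, Ctsa, Ctsd, Ctsl, Gaa, Gla, Glb1, Lamp1, Lgmn, Mcoln1 and Naglu, the median log2 ratio was -0.65, with a range from -2.40 for Lamp1 to 0.82 for Ctsl. Over the 27 measured genes with a window but without these letters the median was -0.28. Ratios lay below 0 for 10 of the 13 and for 21 of the 27. The difference between these groups was not tested. A match describes letters in a window and not binding.

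Tfeb and Tfe3, which encode factors that act through this element, differed little between the pools. Tfeb, which moves to the nucleus when mTORC1 is inactive, went from 451 to 413, a log2 ratio of -0.13. Tfe3, its close relative, went from 1865 to 1823, a log2 ratio of -0.03, which was 0.06 for the values as deposited and also above 0 after quantile normalization and loess. Each has 1 probe set, and mRNA says nothing of where the proteins are in the cell. Mcoln1, the calcium channel of the lysosomal membrane that helps to activate TFEB, went from 843 to 525 and on a second probe set from 660 to 402, log2 ratios of -0.68 and -0.71. A further probe set was below the floor in both pools.

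The other membrane proteins moved less. Scarb2, which carries glucocerebrosidase to the lysosome, went from 883 to 728 (log2 ratio -0.28), and on a second probe set from 789 to 703. Npc1, which exports cholesterol from the lysosome, was the highest of its class, from 334 to 394, a log2 ratio of 0.24 on its single probe set. Npc2, the soluble protein that hands cholesterol to NPC1, went the other way, from 4806 to 3243, a log2 ratio of -0.57. Its further probe sets above the floor had ratios of -0.43 and -1.02, the last of them a dim one that went from 143 to 70.3.

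All 3 luminal cofactors were lower on every probe set above the floor. Besides Npc2 these were Psap, the precursor of the saposins that present lipids to hydrolases, and Grn, the precursor of the lysosomal granulins. Psap went from 6121 to 3896 (log2 ratio -0.65), and on its second probe set from 3244 to 2834, a log2 ratio of -0.19. Grn gave log2 ratios of -0.48, -0.50 and -0.70 on 3 probe sets, with signals of 3986 and 2862 on the brightest. The median of this class, -0.57, was the lowest of the 8 classes, over 3 genes.

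The proteases split, with 8 of 11 ratios below 0 and a median of -0.22. Ctsb, a cysteine protease of broad specificity, went from 17197 to 9963, a log2 ratio of -0.79. The 3 further probe sets of Ctsb above the floor in both pools had -0.58, -0.59 and -0.93, and 1 more, at the floor in the wild-type pool, had at least 0.41. Ctss, the cathepsin that trims the invariant chain of MHC class II in antigen-presenting cells, went from 13993 to 8180, a log2 ratio of -0.77. Ctsd, the main aspartic protease of lysosomes, went from 3751 to 2353, a log2 ratio of -0.67. Ctss and Ctsd have 1 probe set each.

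Ctsl was the highest gene of the whole list. This cysteine protease went from 1699 (wild-type) up to 2997 (knock-out-labelled), 1.76-fold, a log2 ratio of 0.82, and its second probe set was below the floor in both. Ctsl and Ctsb, enzymes of the same family, thus had ratios of opposite sign, each larger than the SD between probe sets. Ctsh, an aminopeptidase of this family, went from 866 to 1016, a log2 ratio of 0.23, with 0.06 on its second probe set. Lgmn, which cuts after asparagine, stood at 645 in both pools.

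The remaining proteases had ratios whose sign differed between probe sets or that were small. Ctsa, the protective protein of neuraminidase and beta-galactosidase, went from 5672 to 4108, a log2 ratio of -0.47, while a dim probe set went from 82.7 to 158, a log2 ratio of 0.93. Ctsz, an exopeptidase, had log2 ratios of -0.14, -0.10 and 0.12 on 3 probe sets, with signals of 24224 and 21970 on the brightest. Ctse, an aspartic protease of endosomes, had -0.22 and 0.14. Ctsc, which activates granule proteases of immune cells, went from 9660 to 8575, a log2 ratio of -0.17.

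**Figure D3:**
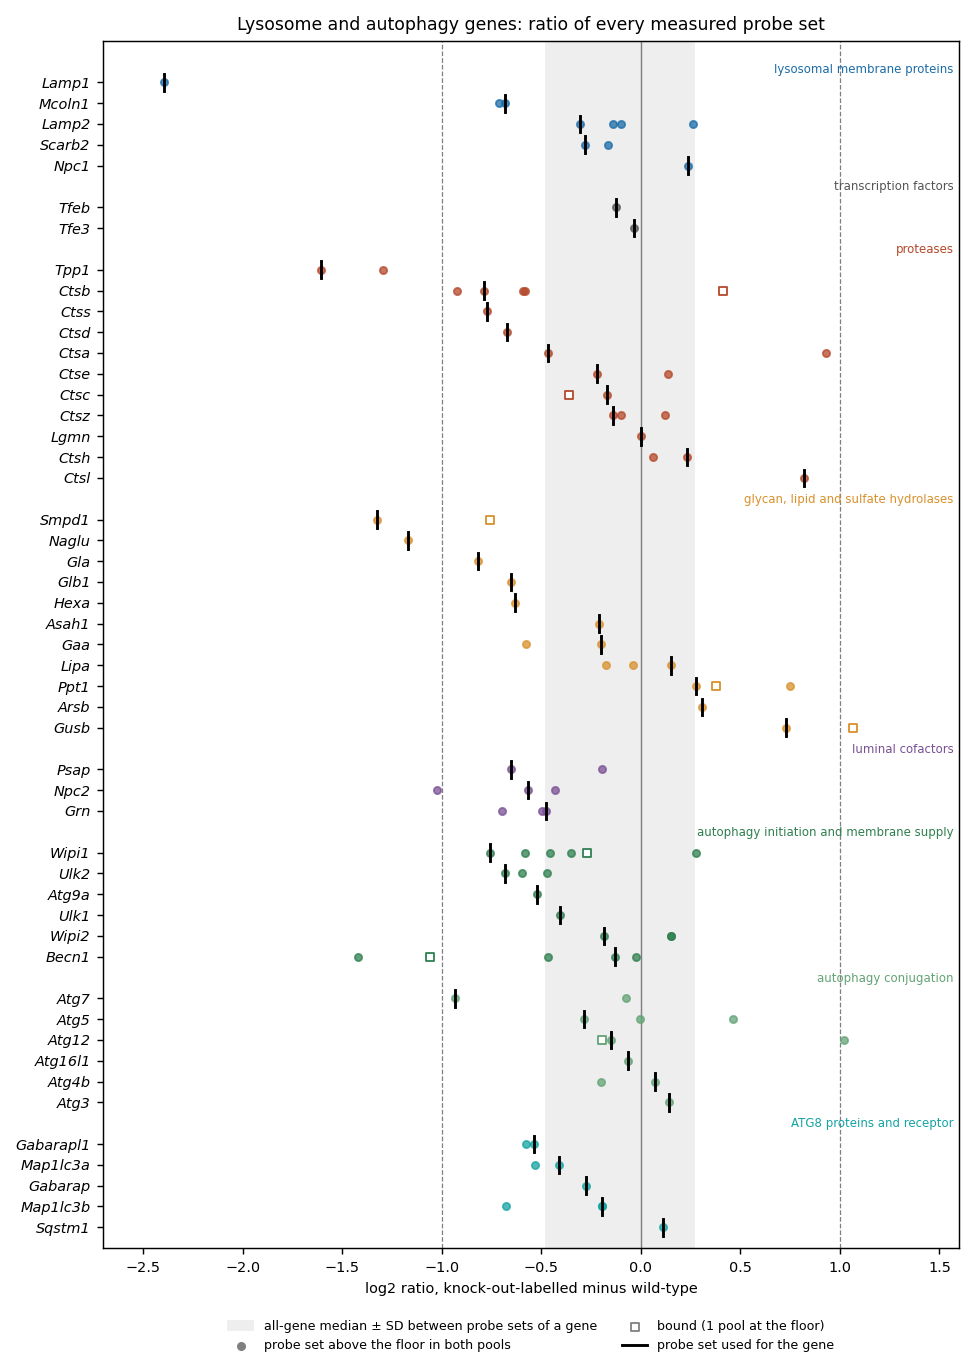
Log2 ratio (horizontal axis) of each measured probe set of the 49 genes, with filled circles where both pools were above the floor, open squares for bounds, and a black bar for the probe set used for the gene. Grey shading spans the median of all measured genes plus and minus the SD of 0.37 between probe sets of 1 gene, and dashed lines mark 2-fold. The 2 probe sets of Tpp1 lie together beyond 2-fold, while those of Becn1, Atg12 and Ctsa are spread over more than 1 log2 unit.

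Hydrolases of glycans, lipids and sulfates had 7 of 11 ratios below 0 and a median of -0.21. Smpd1 and Naglu, described above, were the lowest. Gla, the alpha-galactosidase of glycolipids, went from 483 to 274, a log2 ratio of -0.82, while 2 further probe sets were below the floor. Glb1, the beta-galactosidase, went from 955 to 607, a log2 ratio of -0.65. Hexa, the alpha subunit of beta-hexosaminidase, went from 4181 to 2702, a log2 ratio of -0.63. These 3 enzymes remove sugars from the ends of glycolipids, and all were lower by more than 1.5-fold.

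Gusb, the beta-glucuronidase, was the highest of the hydrolases. It went from 607 to 1006, 1.66-fold higher, a log2 ratio of 0.73, and its dimmer probe set went from below the floor to 142, a log2 ratio of at least 1.06. Ppt1, which removes fatty acids from proteins, was higher on both bright probe sets, from 1385 to 1680 and from 1090 to 1835, log2 ratios of 0.28 and 0.75. Mutations of Ppt1 and of Tpp1 cause related neuronal storage diseases, and their transcripts lay on opposite sides of 0 here. Arsb, a sulfatase of dermatan sulfate, went from 145 to 180, a log2 ratio of 0.31. Lipa, the acid lipase that frees cholesterol and fatty acids from lipoproteins, had 0.15, -0.18 and -0.04 on 3 probe sets, with signals of 2737 and 3037 on the first. Asah1, the acid ceramidase, went from 2415 to 2089 (log2 ratio -0.21), and Gaa, the acid alpha-glucosidase, had -0.20 and -0.58 on its 2 probe sets.

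Autophagy factors were lower in 14 of 17 cases, with a median of -0.27, and 0 of them reached 2-fold in either direction. The shares past 2-fold among all measured genes were 5.08% downward and 2.25% upward. A count of 0 among only 17 factors cannot be told apart from such shares. The autophagy factors that start the autophagosome were all below 0, with a median of -0.47 over 6 genes. Wipi1, which binds the lipid that marks the forming membrane, went from 500 to 296, a log2 ratio of -0.76. Of its 6 probe sets, the other 4 above the floor had -0.58, -0.46, -0.35 and 0.28, the last going from 75.8 to 91.9, near the floor. Ulk2, a kinase that starts autophagy, was lower on 3 probe sets, with log2 ratios of -0.68, -0.60 and -0.47 and signals of 649 and 404 on the brightest. Ulk1, the sister kinase, went from 565 to 426, a log2 ratio of -0.41.

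Atg9a, the membrane protein of the vesicles that feed the autophagosome, went from 3254 to 2264, a log2 ratio of -0.52, on its only probe set. Wipi2, which recruits ATG16L1, had log2 ratios of -0.19, 0.15 and 0.15 on 3 probe sets. Becn1, a subunit of the lipid kinase complex of autophagy, depended on the probe set. Its bright probe sets went from 5512 to 5042 and from 3954 to 3891, log2 ratios of -0.13 and -0.02. Dimmer ones went from 556 to 208 and from 281 to 203, log2 ratios of -1.42 and -0.47. The dimmest went from 142 to below the floor, a log2 ratio of at most -1.06. The bright readings lay within the SD between probe sets and the dimmer ones did not.

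The enzymes that attach ATG8 proteins to lipid had a median of -0.11, equal to that of all measured genes at this rounding. Atg7, the activating enzyme, was the lowest autophagy factor, from 297 to 156, a log2 ratio of -0.93. A dimmer probe set of Atg7 went from 109 to 103, a log2 ratio of -0.08, so the lower value is not shared by both. Atg3, the enzyme that transfers ATG8 proteins to lipid, was the highest autophagy factor, from 4376 to 4832, a log2 ratio of 0.14. Atg5, which forms the ligase with ATG12 and ATG16L1, had -0.28, -0.01 and 0.46 on 3 probe sets, with signals of 1259 and 1034 on the brightest.

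Atg12 gave opposite readings. Its brightest probe set went from 835 to 752 (log2 ratio -0.15), and the next from 247 to 501, a log2 ratio of 1.02, past 2-fold. Atg16l1, the human form of which carries a risk allele for Crohn's disease, went from 524 to 501, a log2 ratio of -0.07. Atg4b, the protease that primes ATG8 proteins, went from 787 to 826 and on a second probe set from 378 to 330, log2 ratios of 0.07 and -0.20. The ligase genes Atg5, Atg12 and Atg16l1 thus lay within the SD between probe sets on the probe set used for each.

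The 4 ATG8 genes among the 50 genes, whose proteins coat the autophagosome and bind cargo receptors, were all below 0. Gabarapl1 went from 716 to 494 and on a second probe set from 317 to 212, log2 ratios of -0.54 and -0.58. Map1lc3a, which encodes LC3A, went from 2986 to 2245 and from 732 to 506, log2 ratios of -0.41 and -0.53. Gabarap went from 20999 to 17375, a log2 ratio of -0.27, which was 0.00 after quantile normalization. Map1lc3b, which encodes the LC3B used as the general marker of autophagosomes, had -0.19, -0.68 and -0.20 on 3 probe sets, with signals of 6510 and 5694 on the brightest. Gabarapl1, Map1lc3a and Map1lc3b each had the same sign on all their probe sets above the floor, while Gabarap has 1 probe set. Sqstm1, the receptor p62 that links ubiquitin to LC3, went from 5851 to 6318, a log2 ratio of 0.11.

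Probe sets of 1 gene gave the same sign for 16 of the 26 genes with at least 2 of them above the floor in both pools, and differing signs for 10. The 10 were Lamp2, Ctsa, Ctse, Ctsz, Lipa, Atg5, Atg12, Atg4b, Wipi1 and Wipi2. Of the 100 measured probe sets, 8 passed 2-fold downward and 2 upward, beside 4.52% and 2.34% of all measured probe sets. A further 19 were below the floor in both pools.

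Other genes of the same systems, from lists of 167 symbols in all, had 146 measured members, of which 10 (6.85%) passed 2-fold downward and 1 (0.685%) upward, beside 5.08% and 2.25% of all measured genes. Their median was -0.23, and 103 ratios lay below 0. Among 29 other hydrolases and cofactors 5 (17.2%, beside 5.08% of all measured genes) passed 2-fold downward and 0 (beside 2.25%) upward, and the median was -0.50. Hgsnat, the acetyltransferase of heparan sulfate breakdown, went from 1498 to 229, a log2 ratio of -2.71, on its only probe set. Dpp7, a dipeptidyl peptidase, went from 566 to 141, and its dimmer probe sets had at most -1.87 and at most -0.685. Neu1, the lysosomal sialidase, went from 2184 to 932, a log2 ratio of -1.23. Further Neu1 probe sets near the floor had at most -0.04 and at most -0.08. Siae, a sialate esterase, and Manba, the beta-mannosidase, had -1.15 and -1.04, and as both lie past the 3 lowest they were named after their values were seen. Siae did not reach 2-fold on its further measured probe sets, with -0.98 and -0.72, and Manba has a single probe set.

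Among 33 membrane and sorting genes 4 (12.1%, beside 5.08%) passed 2-fold downward and 0 (beside 2.25%) upward, and the median was -0.21. Gnptg, a subunit of the enzyme that puts the mannose 6-phosphate tag on hydrolases, went from 722 to 289. Its log2 ratio was -1.32, on its only probe set. Igf2r, the large receptor for this tag, went from 1667 to 683, a log2 ratio of -1.29, with -1.20 on a second probe set. Named after their values were seen, Gnptab, which encodes the other subunits of the tagging enzyme, had -0.99, whereas Nagpa, which uncovers the tag, had 0.00 and M6pr, the small receptor, -0.08. Abca2, a lipid transporter, had at most -1.18, and Slc17a5, the sialic acid exporter, also named in this way, had -1.02. Abca2 and Slc17a5 have a single probe set each.

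Heparan sulfate enzymes, also grouped after their values were seen, were not all lower. Besides Naglu and Hgsnat, Sgsh had at most -0.80, Idua -0.46 and Ids -0.38, while Gusb, which acts on this and other chains, had 0.73. In the complex of CTSA, NEU1 and GLB1, grouped in the same way, the 3 brightest readings were -0.47, -1.23 and -0.65.

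The proton pump and the regulators of TFEB had medians of smaller size than the hydrolase and sorting lists above. Of 17 measured V-ATPase genes, which acidify the lysosome, 0 had a value past 2-fold in either direction, with a median of -0.17. Of all measured genes, 5.08% passed 2-fold downward and 2.25% upward, and 17 genes are too few to tell 0 from these shares. V-ATPase values ran from -0.84 for Atp6v0e2 to 0.04 for Atp6v0a1. Atp6v0d2, named after its values were seen, went from 114 to below the floor, a log2 ratio of at most -0.74. Its ratio may therefore lie below this range and past 2-fold. Of 35 other autophagy genes, 0 passed 2-fold either, beside the same shares of all measured genes. Their median was -0.24, with a range from -0.85 for Wdr45 to 0.80 for Atg10, which is near the floor. Of 32 genes of mTORC1 and TFEB regulation, 16 were above and 16 below 0, with a median of -0.01. In this list 1 gene (3.12%) passed 2-fold downward and 1 (3.12%) upward, near the shares of all measured genes. Sesn1, an inhibitor of mTORC1, went from 4791 to 2352, a log2 ratio of -1.03. Further probe sets of Sesn1 did not reach 2-fold, with -0.74, -0.70 and, on a dim one that went from 104 to 126, 0.28. Castor1, an arginine sensor, went from below the floor to 143, a log2 ratio of at least 1.07.

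**Figure D4:**
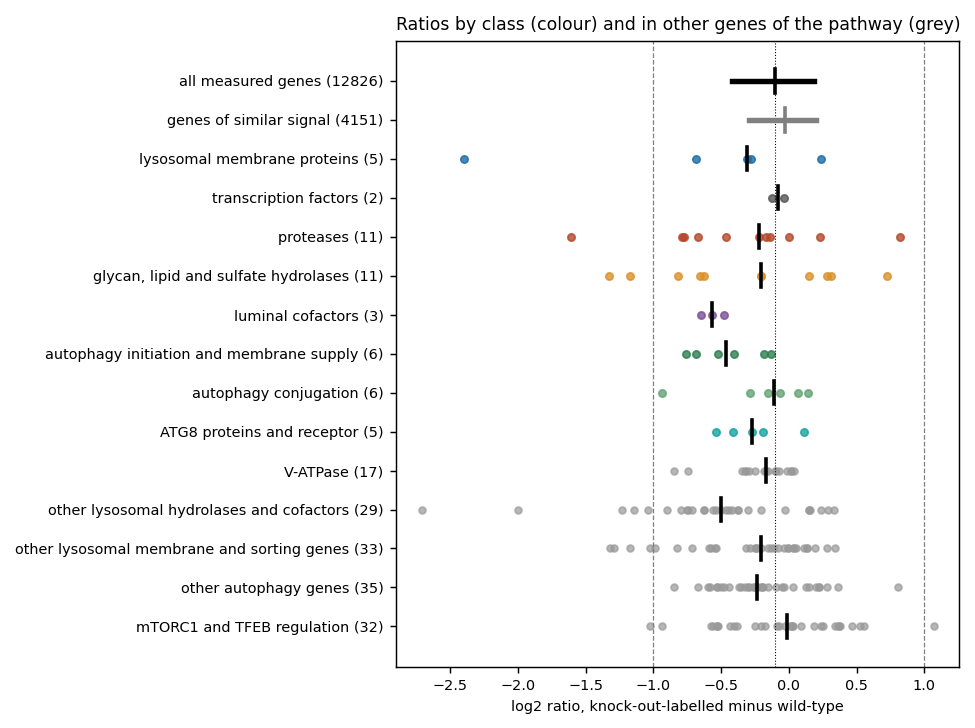
Log2 ratio (horizontal axis) of each measured gene by class (coloured points) and in other genes of the pathway (grey points, Abca2 and Castor1 among them as bounds), with the number of genes in parentheses and a black bar at each median. The upper rows give the median and the 25th to 75th percentiles of all measured genes and of genes of similar signal, and dashed lines mark 2-fold. The medians of 7 of 8 classes lie to the left of the dotted median of all measured genes, and that of the transcription factors does not.

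Medians of the marker lists below lay below 0 for each cell type except smooth muscle and stroma, where the sign depended on genes at the floor in 1 pool. The part of these cell types in the values above was not tested. Macrophage and dendritic cell markers, which matter because these cells are rich in lysosomes, had 16 of 20 listed genes measured, a median of -0.61, and 5 genes (31.2%, beside 5.08% of all measured genes) past 2-fold downward with 0 (beside 2.25%) upward. Their signals summed to 14334 (wild-type) and 8027 (knock-out-labelled), and Fcgr1, Cd163 and Xcr1 were below the floor in both. Lyz2 was the lowest at -1.73, and its sequence resembles that of the Paneth cell gene Lyz1. Mrc1 was the highest at 0.54.

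Enterocyte markers, from the cells that make up most of the scraped epithelium, had a median of -0.65 over 17 measured of 18 listed genes, from -4.43 for Cubn to 1.12 for Slc2a5. Their summed signal was 725605 and 446232, and none was below the floor, so enterocyte markers were read in both pools. A signal above the floor does not check the tissue label. Goblet cell markers had a median of -0.55 over 12 genes, from -3.34 for Muc2 to 0.10 for Atoh1 among the 11 above the floor in both pools, and summed signals of 284113 and 147675. Retnlb, a goblet cell product below the floor in the wild-type pool and at 525 in the other, had a log2 ratio of at least 2.95 and, like Col1a1 below, was named after its values were seen. Paneth cell markers had -0.03 over 7 of 14 listed genes, from -4.00 for Itln1 to 0.62 for Cd24a, with sums of 72014 and 32061. No alpha-defensin was measured, since Defa3 was below the floor in both pools and the others listed had no probe set of their own. This median is the value of Habp2, a bound near the floor, with 4 ratios below 0 and 3 above. Lyz1, named like Habp2 after its values were seen, went from 41914 to 4373, a log2 ratio of -3.26. Intraepithelial and other T cell markers had -0.41 over 9 of 12, from -0.59 for Cd8a to 0.37 for Gzmb, with sums of 25367 and 21150 and with Cd4 and Cd8b1 below the floor. B and plasma cell markers had -0.43 over 7 of 9, from -0.77 for Igha to 0.56 for Pou2af1, with sums of 58735 and 36099 and Tnfrsf17 below the floor. Smooth muscle and stromal markers had 0.15 over 8 of 10, and -0.05 over the 6 above the floor in both pools. Those 6 ran from -0.77 for Myh11 to 0.59 for Col3a1, and Col1a1 had at least 1.16. The list had sums of 2451 and 3037, with Cnn1 and Pecam1 below the floor in both pools.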

How the data were processed

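The deposited table gives 1 linear intensity for every probe set of the Affymetrix Mouse Genome 430 2.0 array. They are MAS5 signals, per the submitters' processing notes, whose version is not given in the sources used here, and no present or absent calls were used. The mean of each deposited column trimmed by 2 percent at each end was 500, so the authors' values carry a global scaling. Each array was multiplied by a factor (1.034 for wild-type, 0.967 for knock-out) that made the 75th percentiles of 45037 non-control probe sets equal, floored and taken to log2. A gene took its probe set with the highest mean log2 signal. A gene above the floor in 1 pool or both was measured. Symbols were updated by Entrez number through RefSeq (GRCm38.p6), which held 99.4% of those behind the 34945 probe sets with 1 symbol, and 932 with several symbols were left out. Promoter sequences are from the same RefSeq build. That build is not stated for the array, and its coordinates are printed only for these promoters.

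The genes and lists were chosen with earlier results of these data known. Any of the 50 genes could be named. From each pathway list the genes past 2-fold were named, at most the 3 highest and the 3 lowest, and from each marker list the highest and the lowest above the floor on both arrays. Others are said to be named after their values were seen, except the ends of lists with 0 genes past 2-fold. Alternatives were the values as deposited, quantile normalization, loess, floors at the 25th and 75th percentiles, the median over probe sets, probe sets without a suffix (_s_at, _x_at or _a_at), thresholds of 1.5-fold and 3-fold and, added after seeing the data, equal labelling or hybridisation spikes. The steps were tested on simulated data, with Python 3.11.15, numpy 2.4.6, pandas 2.3.3 and statsmodels 0.14.6.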

Additional observations from a re-analysis of the deposited data

How the results depend on the processing

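Each count and ratio was recomputed with 1 choice changed at a time. The count of lysosome and autophagy genes at least 2-fold lower was 4 (8.16%) for the values as deposited and after quantile normalization and loess. Beside it stood 4.14%, 4.01% and 3.77% of all measured genes, in this order. It was also 4 for the median over probe sets, beside 4.16%, and for a floor at the 25th percentile. At that floor 15.2% of all measured genes were at least 2-fold lower, a larger share than that of the lysosome and autophagy genes. The count was 2 of 45 genes with a ratio for a floor at the 75th percentile (Lamp1 and Tpp1), where Naglu had no ratio. This is 4.44%, beside 3.05% of all measured genes. The count was 2 of 37 for probe sets without a suffix (Naglu and Tpp1), where Lamp1 and Smpd1 had no probe set. This is 5.41%, beside 5.14%. The count was 2 at a threshold of 3-fold (4.08%, beside 1.05%) and 15 at 1.5-fold (30.6%, beside 16.3%). With labelling spikes equal it was 2 (4.08%, beside 2.52%), and with hybridisation spikes equal 1 (2.04%, beside 0.982%). The count higher was 2 at 1.5-fold, 2 with labelling spikes equal and 6 with hybridisation spikes equal, where the median ratio was 0.50. Of all measured genes, 7.84%, 5.58% and 20.6% were higher in these settings. Of the 38 lower genes, 26 had a value in each of the 7 planned settings, and 20 of these kept their sign in each. With the spikes included, 7 kept their sign wherever they had a value (Lamp1, Ctsb, Gla, Naglu, Smpd1, Tpp1 and Atg7), of which 3 (Ctsb, Gla and Tpp1) had one in all 9 settings. With a floor at the 75th percentile Smpd1 stood at -0.10, since that floor lies just under its wild-type signal. No paired analysis was possible because each group has 1 array. Signal over background limits the dim probe sets, and a planned comparison of ATG8 protein sequences was not run.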
